A study of Mus musculus with 6 samples.

Results

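The Notch receptors Notch1, Notch2 and Notch3, the ligands Jag1, Jag2 and Dll1 and the target genes Hes1, Hey1, Heyl and Nrarp were followed in mouse back epidermis that had lost Spry1. These 10 genes were chosen by symbol among the 54532 genes of the expression table, and all 10 were found. The knockout group (Spry1_KO, n = 3) carried floxed Spry1 on both alleles and K14-Cre-ERT2, a Cre recombinase driven by the keratin 14 promoter of basal keratinocytes and switched on by tamoxifen. The control group (Control, n = 3) carried the same floxed alleles without Cre. Both groups were fed tamoxifen by mouth in corn oil (0.1 mg for each g of weight, on 4 occasions weekly during 4 weeks). Cre was present in the knockouts alone, so what Cre itself did and what the loss of Spry1 did cannot be told apart. The labels give neither the age of the mice nor whether each sample was a separate animal, so each p-value is set by sample-to-sample spread that may be technical.

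Notch receptors are cleaved when they bind Jagged or Delta ligands on a neighbouring cell. The metalloprotease ADAM10 and then gamma-secretase cut the receptor, and the freed intracellular part enters the nucleus, binds the DNA-binding protein RBPJ with a Mastermind coactivator and switches on target genes such as the Hes and Hey repressors. In epidermis, Notch signalling is known for promoting the step by which keratinocytes leave the basal layer and differentiate.

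The RNA came from whole epidermis. Values are FPKM, which divides the fragments of a gene by its length and by a sample total. Levels can therefore be compared between genes. The reads recovered from the FPKM values came to 18383323 to 21024716 per sample. The sample total was 95.6%, 90.7% and 88.1% of these reads in the knockouts. In the controls it was 99.1%, 98.8% and 102.9%, so the FPKM were not scaled to recovered reads. Median-ratio size factors of the samples ran from 0.9923 to 1.017, so the columns were already close to level between samples. Spry1, the deleted gene, read 1.06, 1.49 and 1.28 FPKM in the knockouts, against 25.8, 28.2 and 34.4 FPKM in the controls. The Y-linked gene Eif2s3y read 0.203, 19.3 and 0.0438 FPKM in the knockouts and was listed at 0 in all controls. The X-linked gene Xist read 25.3, 1.31 and 20.0 FPKM in the knockouts and 50.6, 41.1 and 89.1 FPKM in the controls. Spry1_KO replicate 2 therefore stood apart with a male pattern of sex-linked expression, which no control had. Keratinocyte markers (a list of 7 genes) summed to 22209 to 27757 FPKM in the knockouts and 12604 to 14143 FPKM in the controls. The labelled cell type was therefore present in every sample. In the test described below, 3 of the 7 markers (Krt14, Krt5 and Krt1) were higher and 2 (Krt10 and Trp63) lower. Lor and Cdh1 did not pass, so the sum does not speak for every marker. In such bulk tissue, fewer cells of a type and less RNA per cell cannot be told apart.

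Of the 10 genes, 2 ligands were lower and 1 target gene was higher in the knockouts. The Delta ligand Dll1 fell to 0.356 times its control level in FPKM, and the Jagged ligand Jag2 to 0.475 times. Hey1, a low gene, was 2.50 times its control level. Jag1, the 3 receptors, Hes1 and Nrarp did not pass the test, and Heyl lay below the filter of a mean of 1 FPKM. Calls come from limma on log2(FPKM + 1) with a Benjamini-Hochberg adjusted p under 0.05 over all 12629 genes tested, a scale that understates the change of low genes. Of those 12629 genes, 54% were called, 29.6% as higher and 24.4% as lower, so the 3 calls among 9 tested members, or 33.3%, came in a comparison where most genes were called. Groups did not overlap for 4 of the 9 tested members, against 64.2% of all tested genes.

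**Figure D1:**
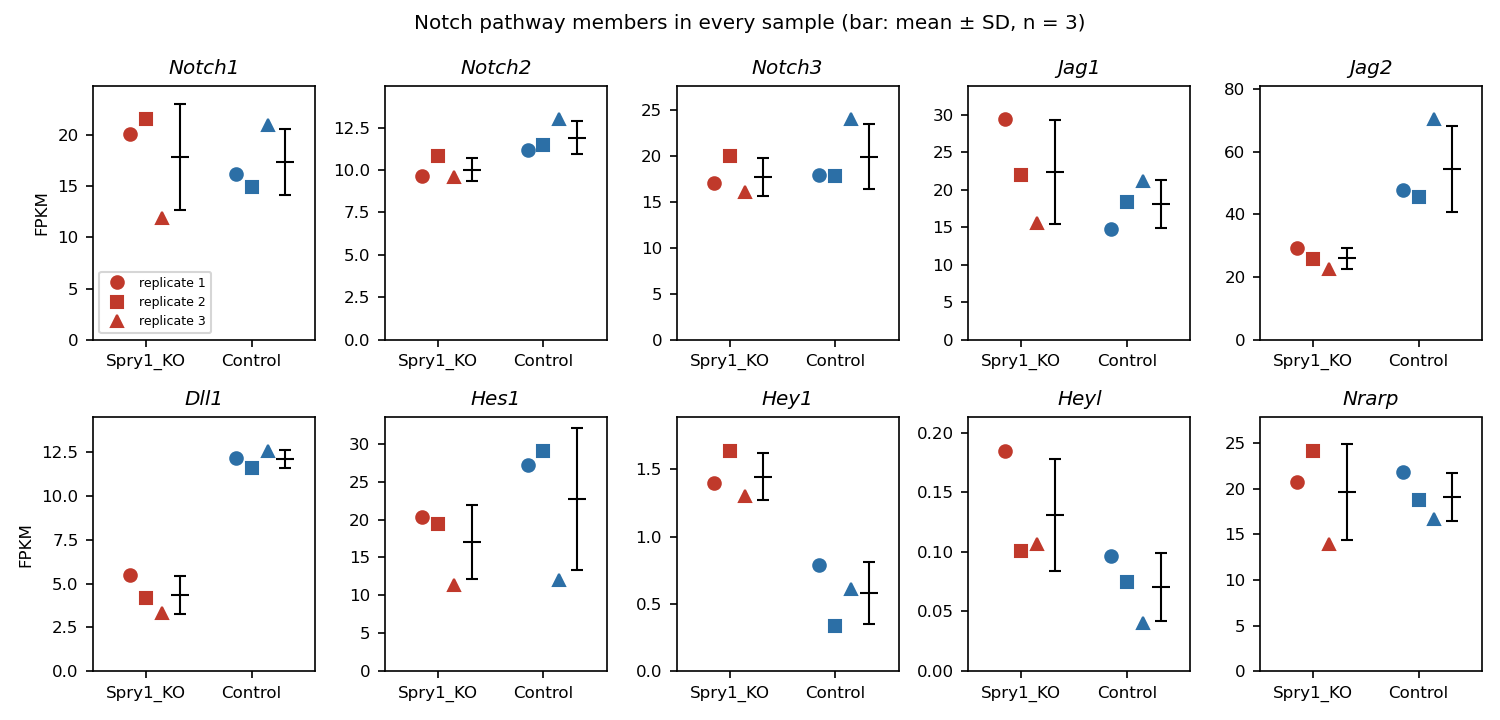
FPKM (y axis, linear from 0, scale set per gene) of the 10 genes in each Spry1_KO sample (red, left) and each Control sample (blue, right), with symbols for replicates 1 to 3 and a black bar for the mean ± SD (n = 3). Jag2 and Dll1 lie lower in every knockout sample than in any control sample and Hey1 higher, while Notch1, Notch3, Jag1, Hes1 and Nrarp overlap.

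Dll1, a Delta ligand on chromosome 17 (15367354 to 15376872 in GRCm38, minus strand), read 5.47, 4.18 and 3.31 FPKM in the knockouts, against 12.2, 11.6 and 12.6 FPKM in the controls. Every knockout sample lay below every control sample. Its mean was 4.32 ± 1.09 FPKM in knockouts and 12.1 ± 0.510 FPKM in controls (SD, n = 3 each). The log2 fold change came to -1.32 ± 0.15 (SE), and the adjusted p from limma to 0.000484. The values rested on 230 to 464 recovered reads in the knockouts and 894 to 1036 in the controls. The difference passed in all 14 alternative analyses, with log2 fold changes from -1.69 to -1.18.

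Jag2, a Jagged ligand on chromosome 12 (112907819 to 112929776, minus strand), read 29.4, 25.8 and 22.7 FPKM in the knockouts, against 47.8, 45.6 and 70.5 FPKM in the controls. The groups did not overlap, and Control replicate 3 was far above the other controls. The mean was 26.0 ± 3.34 FPKM in knockouts and 54.6 ± 13.8 FPKM in controls (SD, n = 3 each). Its log2 fold change came to -1.02 ± 0.18 (SE), and its adjusted p from limma to 0.00331. Without Control replicate 3 or any other single sample the log2 fold change stayed between -1.14 and -0.83, and the adjusted p between 0.00188 and 0.0151. The microRNA gene Mir6941 lies within Jag2 on the same strand and averaged 0.607 FPKM in knockouts and 6.92 FPKM in controls. Reads of Mir6941 and Jag2 cannot be separated here.

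Jag1, the other Jagged ligand, on chromosome 2 (137081456 to 137116644, minus strand), did not pass the test. It read 29.4, 22.0 and 15.5 FPKM in the knockouts and 14.8, 18.4 and 21.2 FPKM in the controls. The groups overlapped, with a log2 fold change of 0.25 ± 0.23 (SE), a 95% interval from -0.30 to 0.80 and a limma adjusted p of 0.387. Without 1 sample it ran from 0.04 to 0.48. A rise or a small fall of Jag1 therefore cannot be told apart in these samples, while a fall as large as that of Jag2 lies outside the interval.

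Shares of the ligand transcripts within a sample do not depend on how samples are scaled. They restate the lower Jag2 and Dll1, and none passed a test of its own at 3 against 3 samples. Jag1 made up 45.7%, 42.3% and 37.4% of the summed FPKM of Jag1, Jag2 and Dll1 in the knockouts, against 19.8%, 24.4% and 20.3% in the controls. Jag2 held 45.7%, 49.7% and 54.6% in the knockouts, against 63.9%, 60.3% and 67.6% in the controls. Dll1 held 7.98% to 8.52% in the knockouts and 12.1% to 16.3% in the controls. No ligand share overlapped between the groups. The ratio of Jag1 to Jag2 averaged 0.846 ± 0.158 in knockouts and 0.338 ± 0.0571 in controls (SD, n = 3 each; two-sided exact permutation p of 0.1, the smallest that 3 against 3 samples can give, and 0.167 adjusted over the 10 sums, shares and ratios compared).

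The summed ligand level was 64.2, 52.0 and 41.5 FPKM in the knockouts and 74.8, 75.6 and 104 FPKM in the controls, without overlap (exact permutation p of 0.1). The 3 receptors together came to 37.5 to 52.4 FPKM in the knockouts and 44.2 to 58.0 FPKM in the controls, which overlapped (exact permutation p of 0.7). Ligand over receptor FPKM was 1.16 ± 0.195 in knockouts and 1.72 ± 0.0737 in controls (SD, n = 3 each; exact permutation p of 0.1, adjusted 0.167). The ligand sum and this ratio also restate the lower Jag2 and Dll1, and 0.1 is again the smallest p possible.

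**Figure D2:**
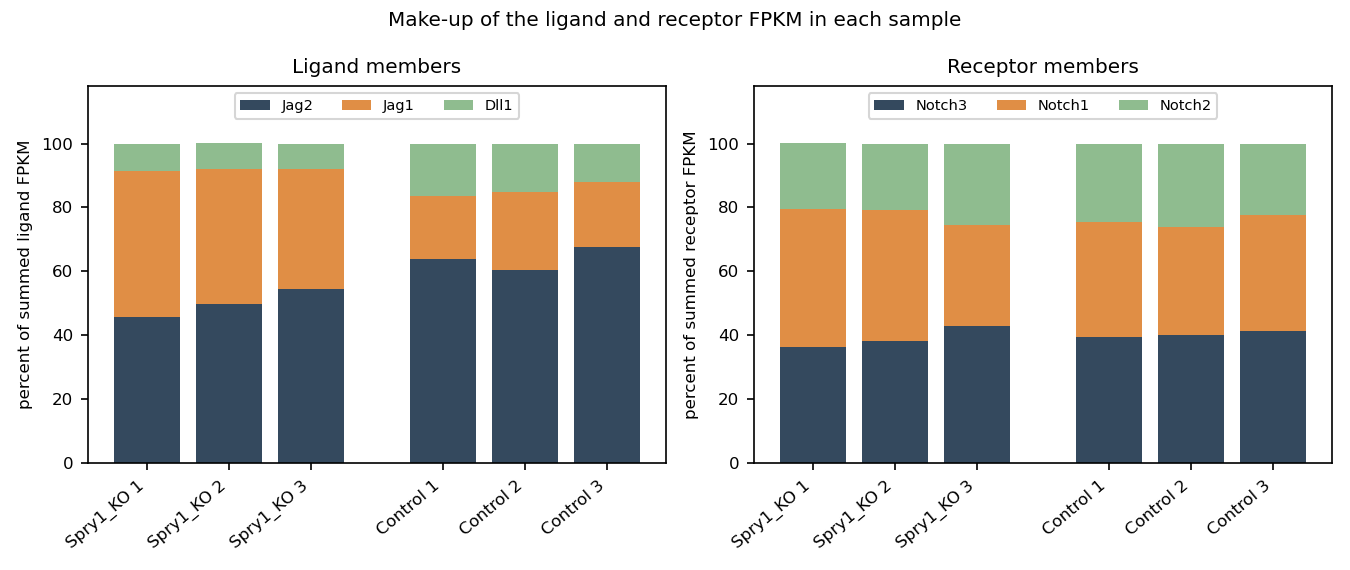
Percent of the summed FPKM held by each of the 3 ligands (left) and each of the 3 receptors (right), as stacked bars from 0 to 100% for the Spry1_KO samples and then the Control samples. Jag1 takes 37.4% to 45.7% of the ligand bar in knockouts and 19.8% to 24.4% in controls, while the receptor shares overlap.

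Promoter sequence of the ligands and of Nrarp is shown because Notch targets feed back on the pathway through RBPJ sites and through E-boxes that HES and HEY proteins bind. Windows of 250 bases before the RefSeq starts (GRCm38.p6) were available for 7 of the 10 genes, in 8 windows. Hes1, Hey1 and Heyl had no entry. Capitals mark CACGCG (with its reverse complement CGCGTG) or the palindrome CACGTG, and only bases outside the GENCODE span of each gene are printed, 5′ to 3′ on the gene's strand.
Dll1 (chr17:15376933-15377182, minus strand): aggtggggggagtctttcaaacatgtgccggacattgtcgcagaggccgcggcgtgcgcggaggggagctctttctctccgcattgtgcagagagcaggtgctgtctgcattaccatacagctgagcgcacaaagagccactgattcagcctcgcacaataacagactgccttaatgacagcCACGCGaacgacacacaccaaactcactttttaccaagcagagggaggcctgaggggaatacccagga
Jag1 (chr2:137116645-137116770, minus strand): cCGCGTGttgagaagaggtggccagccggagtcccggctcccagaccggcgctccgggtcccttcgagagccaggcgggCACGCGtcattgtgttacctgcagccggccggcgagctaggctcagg
Nrarp (chr2:25180508-25180757, plus strand): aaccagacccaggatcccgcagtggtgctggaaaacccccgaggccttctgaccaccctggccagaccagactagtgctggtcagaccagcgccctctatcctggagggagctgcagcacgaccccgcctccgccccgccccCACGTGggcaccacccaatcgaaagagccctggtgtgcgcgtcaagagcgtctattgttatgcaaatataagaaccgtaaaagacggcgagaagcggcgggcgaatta

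The Jag2 window lies inside the longer GENCODE span of Jag2 and is not printed. It holds none of these letters and is 87.2% G and C, against 56.0% in the Dll1 window shown and 57.2% in the full Jag1 window. A further Dll1 window (chr17:15375824-15376073) lies inside the GENCODE span of Dll1, is not printed and holds none of these letters either. CACGCG on either strand occurred in 3 of the 8 member windows, namely the Dll1 window shown and those of Jag1 and Notch2. It occurred in 7.62% of all 32851 windows. CACGTG occurred in 1 of the 8 and in 6.02% of all. TGGGAA, the core of the RBPJ site, occurred on neither strand in any of the 8 windows, against 21.6% of all windows, which says only that these letters are absent from these stretches. The member windows were richer in G and C than all windows, with medians of 65.0% and 52.4%. A match is a description of the letters and not of binding. Dll1, which was lower, had a CACGCG match in the window shown only. Jag1, which did not pass, had a match too, and Jag2, which was lower, had none.

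None of the 3 receptors passed the test. Notch1, a receptor needed for normal epidermal differentiation, on chromosome 2 (26457903 to 26516663), read 20.1, 21.6 and 11.9 FPKM in the knockouts and 16.2, 14.9 and 21.0 FPKM in the controls. Spry1_KO replicate 3 was the lowest of all 6 samples and Spry1_KO replicate 2 the highest, so the groups overlapped. The log2 fold change was 0.01 ± 0.23 (SE), with a 95% interval from -0.54 to 0.56 and a limma adjusted p of 0.976.

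Notch2, on chromosome 3 (98013527 to 98150361), was the steadiest of the receptors. It read 9.67, 10.8 and 9.56 FPKM in the knockouts, against 11.2, 11.5 and 13.0 FPKM in the controls. The groups did not overlap, as was so for 64.2% of all tested genes, but the difference was small. In log2 fold change it was -0.22 ± 0.09 (SE), with a 95% interval from -0.44 to -0.01 and a limma adjusted p of 0.0749. It passed as lower with TPM scaling (adjusted p of 0.0196), with recovered-read scaling (0.0263) and in limma-voom on recovered reads (0.0368).

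Notch3, on chromosome 17 (32120820 to 32166852), read 17.0, 20.0 and 16.1 FPKM in the knockouts and 17.9, 17.8 and 24.0 FPKM in the controls. The groups overlapped, and Control replicate 3 gave the highest value. The log2 fold change was -0.15 ± 0.14 (SE), with a 95% interval from -0.49 to 0.18 and a limma adjusted p of 0.391. Without 1 sample it ran from -0.24 to -0.02. Receptor shares overlapped as well, with Notch1 at 31.7% to 43.0% of the receptor sum in knockouts and 33.8% to 36.1% in controls.

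The target genes gave no common direction. Hes1, a basic helix-loop-helix repressor and a classical Notch target, on chromosome 16 (30064384 to 30067796), read 20.3, 19.4 and 11.4 FPKM in the knockouts and 27.2, 29.1 and 12.0 FPKM in the controls. Replicate 3 of either group was low, and the other controls lay above all knockouts. The log2 fold change was -0.34 ± 0.36 (SE), with a 95% interval from -1.20 to 0.51 and a limma adjusted p of 0.45. The value moved with whichever of several libraries was left out. Without Control replicate 3 the log2 fold change of Hes1 was -0.73 with a limma adjusted p of 0.0419, and without it and Spry1_KO replicate 2 together -0.84 and 0.0418. Without Spry1_KO replicate 3 the log2 fold change was -0.09, without Control replicate 1 it was -0.17 and without Control replicate 2 it was -0.13.

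Nrarp, an ankyrin repeat protein that Notch induces and that limits Notch signalling, on chromosome 2 (25180758 to 25183339), read 20.8, 24.2 and 13.9 FPKM in the knockouts and 21.9, 18.8 and 16.7 FPKM in the controls. The knockouts spanned the whole range of the controls. The log2 fold change was 0.01 ± 0.20 (SE), with a 95% interval from -0.47 to 0.49 and a limma adjusted p of 0.972.

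Hey1, a Hes-related repressor on chromosome 3 (8663359 to 8667256), read 1.40, 1.64 and 1.30 FPKM in the knockouts, against 0.790, 0.335 and 0.613 FPKM in the controls. All knockouts lay above all controls at a low level, on 70 to 93 recovered reads in the knockouts and 20 to 47 in the controls. Hey1 rose by 0.64 ± 0.15 (SE) on the log2 scale (adjusted p 0.0116 by limma), and by 1.34 (0.00969) in limma-voom on recovered reads. Hey1 reached the filter through its knockout level alone, so its call was favoured by the filter, and without any 1 knockout sample it fell below the filter and was not tested. With no filter its limma adjusted p was 0.0243.

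Heyl, the remaining Hey gene, on chromosome 4 (123233556 to 123249875), read 0.185, 0.101 and 0.107 FPKM in the knockouts and 0.0966, 0.0749 and 0.0401 FPKM in the controls. These values rested on 9 to 19 recovered reads in the knockouts and 4 to 9 in the controls and were not tested. Hey1 and Heyl are also genes of blood vessels, and none of 9 endothelial markers reached the filter. The summed level of these markers was 2.07 to 2.97 FPKM in the knockouts and 1.93 to 6.81 FPKM in the controls. Cdh5, Kdr, Tek, Tie1, Emcn and Egfl7 stayed under 1 FPKM in every sample. Egfl7 read 0.709, 0.998 and 0.628 FPKM in the knockouts, against 0.322, 0.229 and 0.301 FPKM in the controls, without overlap. Every other endothelial marker had a lower mean in the knockouts, with overlap. Hey1 lay at a similar low level, and whether vessel cells contributed to it was not tested.

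**Figure D3:**
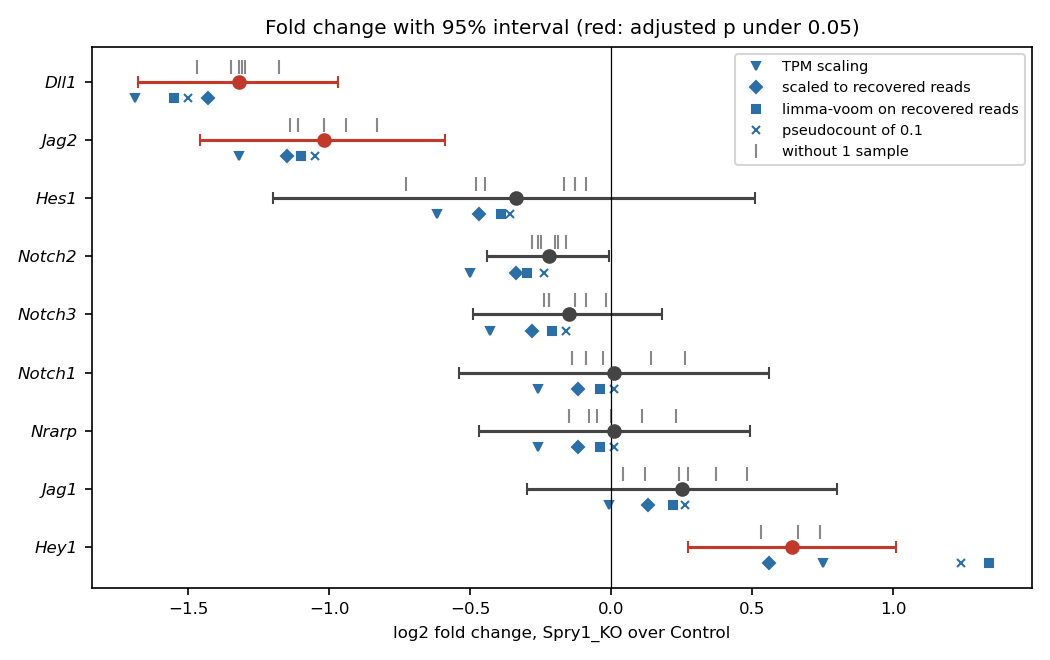
Log2 fold change of Spry1_KO over Control (x axis) on log2(FPKM + 1) for the 9 tested genes, with 95% intervals from limma (red: adjusted p under 0.05). Blue symbols below each line give other scalings and tests, and grey ticks above it the values without 1 sample. Dll1 and Jag2 stay left of 0 and Hey1 right of it, while Notch1, Nrarp and Jag1 straddle it. Hey1 reached the filter through its knockout level alone, so its grey ticks cover left-out controls only.

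The order of the levels differed between the groups. In the knockouts Jag2 (26.0 FPKM) was followed by Jag1 (22.3), Nrarp (19.6), Notch1 (17.9), Notch3 (17.7) and Hes1 (17.0), and the ranges of neighbours among these overlapped. Notch2 (10), Dll1 (4.32), Hey1 (1.45) and Heyl (0.131) followed in the knockouts, each clear of its neighbours. In the controls Jag2 (54.6 FPKM) stood clear of the other 9, ahead of Hes1 (22.8), Notch3 (19.9), Nrarp (19.1), Jag1 (18.1) and Notch1 (17.4), whose neighbours overlapped. Dll1 (12.1) and Notch2 (11.9) overlapped in the controls, whereas the ranges of Notch2 and Dll1 were apart in the knockouts.

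Within a group, the 10 genes often ranked the samples alike, and how all tested genes ranked them was not counted. Spry1_KO replicate 3 gave the lowest knockout value for 9 of the 10 genes, all but Heyl. Control replicate 3 gave the highest control value for 6, the 3 receptors and the 3 ligands, and the lowest for Hes1, Heyl and Nrarp. The coefficient of variation ran from 7.0% (Notch2) to 35.6% (Heyl) in the knockouts and from 4.2% (Dll1) to 41.3% (Hes1) in the controls.

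Scaling bears on the small differences. With TPM scaling the median log2 fold change of all tested genes moved by -0.25, and calls went to 2055 higher and 4470 lower, against 3736 and 3079 as deposited. Scaled to recovered reads the median moved by -0.11, with 2900 higher and 3742 lower. Relative to the median of all genes, Jag2 stood at -1.10 under TPM scaling and -1.06 as deposited, Dll1 at -1.47 and -1.35, Notch2 at -0.28 and -0.26, and Notch1 at -0.04 and -0.02.

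Dll1, with the lowest p among the members, had its pattern over the 6 samples matched closely by Ddi2 (Pearson r of 0.997) and Abcc1 (0.997), among 4925 genes averaging 10 FPKM or more. In all, 615 of these had r over 0.9 with Dll1. The samples fall into both genotypes, so these values describe a shared split and carry no p.

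The rest of the pathway was read from fixed lists. Of 56 other components, 43 reached the filter, of which 9 were higher and 11 lower. This is 46.5% called, against 54% of all tested genes, and the median log2 fold change was 0.02, against 0.03 for all. Among 5 other receptors and ligands Dlk2 alone reached the filter. Dlk2, a Delta-like protein without the domain that activates Notch, fell to 7.54, 5.70 and 6.13 FPKM in the knockouts, against 21.8, 15 and 21.1 FPKM in the controls (a log2 difference of -1.44 ± 0.16, SE; limma adjusted p of 0.000491). Notch4 and Dll4, known from endothelium, stayed at or below 0.170 FPKM and 0.0285 FPKM in every sample, and Dll3 and Dlk1 were as low.

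Of 6 other Hes and Hey genes only Hes6, which counteracts Hes1, was expressed at a level that could be tested. It read 6.28, 6.69 and 6.29 FPKM in the knockouts, against 10.2, 7.80 and 6.95 FPKM in the controls. The groups did not overlap, as was so for 64.2% of all tested genes. The difference did not pass (a log2 difference of -0.32 ± 0.13, SE; limma adjusted p of 0.0846). Hes6 passed as lower with TPM scaling (0.00954), with recovered-read scaling (0.0282) and without Control replicate 3 (0.0238). Hes2, Hes3, Hes5, Hes7 and Hey2 stayed under 0.3 FPKM in every sample.

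Of 10 genes of receptor maturation and cutting 3 were higher and 4 lower, or 70.0% called against 54% of all genes. The count was 5 to 6 without 1 sample, and 5 under TPM scaling, with no filter and with the replicate block. Furin, the convertase that matures Notch receptors, rose to 19.2 ± 1.32 FPKM in knockouts, against 8.49 ± 0.917 FPKM in controls (SD, n = 3 each; limma adjusted p of 0.000217). Adam10, the ligand-dependent sheddase, rose to 34.5 ± 5.21 FPKM in knockouts, against 22.8 ± 0.792 FPKM in controls (limma adjusted p of 0.00602). It did not pass with TPM scaling (0.0804). Adam17, a related sheddase, fell by 0.30 on the log2 scale, with a limma adjusted p of 0.0412. That call was lost without any 1 sample other than Control replicate 3 (0.0797 to 0.123).

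Within gamma-secretase, the subunit Aph1b fell to 2.84 ± 0.294 FPKM in knockouts, against 7.01 ± 0.454 FPKM in controls (limma adjusted p of 0.000196). Aph1c was lower by 0.91 on the log2 scale, but it is a close copy of Aph1b, and reads may have been split between them wrongly. Psenen rose by 0.29 on the log2 scale with a limma adjusted p of 0.0369. Its call was lost without any 1 sample other than Control replicate 1 (0.058 to 0.104), under TPM scaling (0.854) and scaled to recovered reads (0.139). Under TPM scaling 1 of the 10 genes was higher. The subunits Ncstn, Aph1a and Psen2 did not pass, with log2 fold changes of 0.06, 0.19 and 0.14, and under TPM scaling they turned to -0.21, -0.09 and -0.05.

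Of 5 tested enzymes that put sugars on the receptor, 3 were lower and 1 was higher, or 80.0% called against 54% of all genes, and Mfng lay below the filter. Lfng, the fringe that tunes the response to Delta and Jagged ligands, fell to 12.5, 9.75 and 8.37 FPKM in the knockouts, against 17.6, 16.3 and 15.5 FPKM in the controls (a log2 difference of -0.66 ± 0.14, SE; limma adjusted p of 0.00712). Rfng, another fringe, rose to 17.6, 15.8 and 17.7 FPKM in the knockouts, against 9.41, 8.68 and 11.6 FPKM in the controls (a log2 difference of 0.73 ± 0.12, SE; limma adjusted p of 0.00203). Neither fringe overlapped between the groups, as was so for 64.2% of all tested genes, and both passed in all 14 alternatives. Pofut1, the fucosyltransferase that starts these chains, fell by 0.50 on the log2 scale (limma adjusted p of 0.00558). Eogt fell by 0.29 (limma adjusted p of 0.0331), a call lost without any 1 sample other than Spry1_KO replicate 1 (0.0534 to 0.098), which left 2 enzymes lower.

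Of 11 tested genes of ligand endocytosis and receptor ubiquitination, 2 were higher and 2 lower, or 36.4% called against 54% of all genes. Mib2, a ubiquitin ligase acting on ligands, fell to 6.63 ± 0.722 FPKM in knockouts, against 10.8 ± 1.65 FPKM in controls (SD, n = 3 each; limma adjusted p of 0.00519), while its relative Mib1 did not pass (log2 fold change 0.07, limma adjusted p of 0.447). Neurl1b, of the neuralized ligases, and Itch, a ligase acting on Notch, rose by 0.49 and 0.53 on the log2 scale (limma adjusted p of 0.0024 and 0.00147). Both calls were lost under TPM scaling (0.105 and 0.0674). Dtx4, a deltex ligase, fell to 0.829, 0.9 and 1.04 FPKM in the knockouts, against 4.43, 3.6 and 1.74 FPKM in the controls (limma adjusted p of 0.00926). Without Control replicate 3, 4 genes of this list were higher.

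The nuclear core of the pathway did not pass the test. Rbpj, which carries the complex on DNA, read 4.14 ± 0.505 FPKM in knockouts and 4.19 ± 0.486 FPKM in controls (SD, n = 3 each; log2 fold change -0.02, 95% interval -0.29 to 0.26). The Mastermind genes Maml1, Maml2 and Maml3 had log2 fold changes of 0.02, 0.13 and -0.03 with limma adjusted p values of 0.391 to 0.845. Their signs and that of Rbpj turned in some alternatives, such as Maml1 and Maml2 under TPM scaling (-0.25 and -0.05). Among 15 tested genes of the complex and its corepressors, 3 were higher and 1 lower, or 26.7%, against 54% of all genes. Tle1, a Groucho corepressor that HES proteins recruit, rose to 10.7, 10.2 and 11.2 FPKM in the knockouts, against 3.14, 3.21 and 3.29 FPKM in the controls. These groups lay far apart, at a log2 difference of 1.47 ± 0.08 (SE) and an adjusted p of 2.8e-05 by limma. The acetyltransferase gene Kat2a rose to 20.0 ± 2.87 FPKM in knockouts, against 10.6 ± 1.99 FPKM in controls (limma adjusted p of 0.00339). Tle3 rose by 0.33 on the log2 scale (limma adjusted p of 0.00829), but missed the threshold with TPM scaling (0.619) and with recovered-read scaling (0.0688). Tle4 fell by 0.27 (limma adjusted p of 0.0481), and no call remained without any 1 sample other than Spry1_KO replicate 1 (0.0582 to 0.148).

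**Figure D4:**
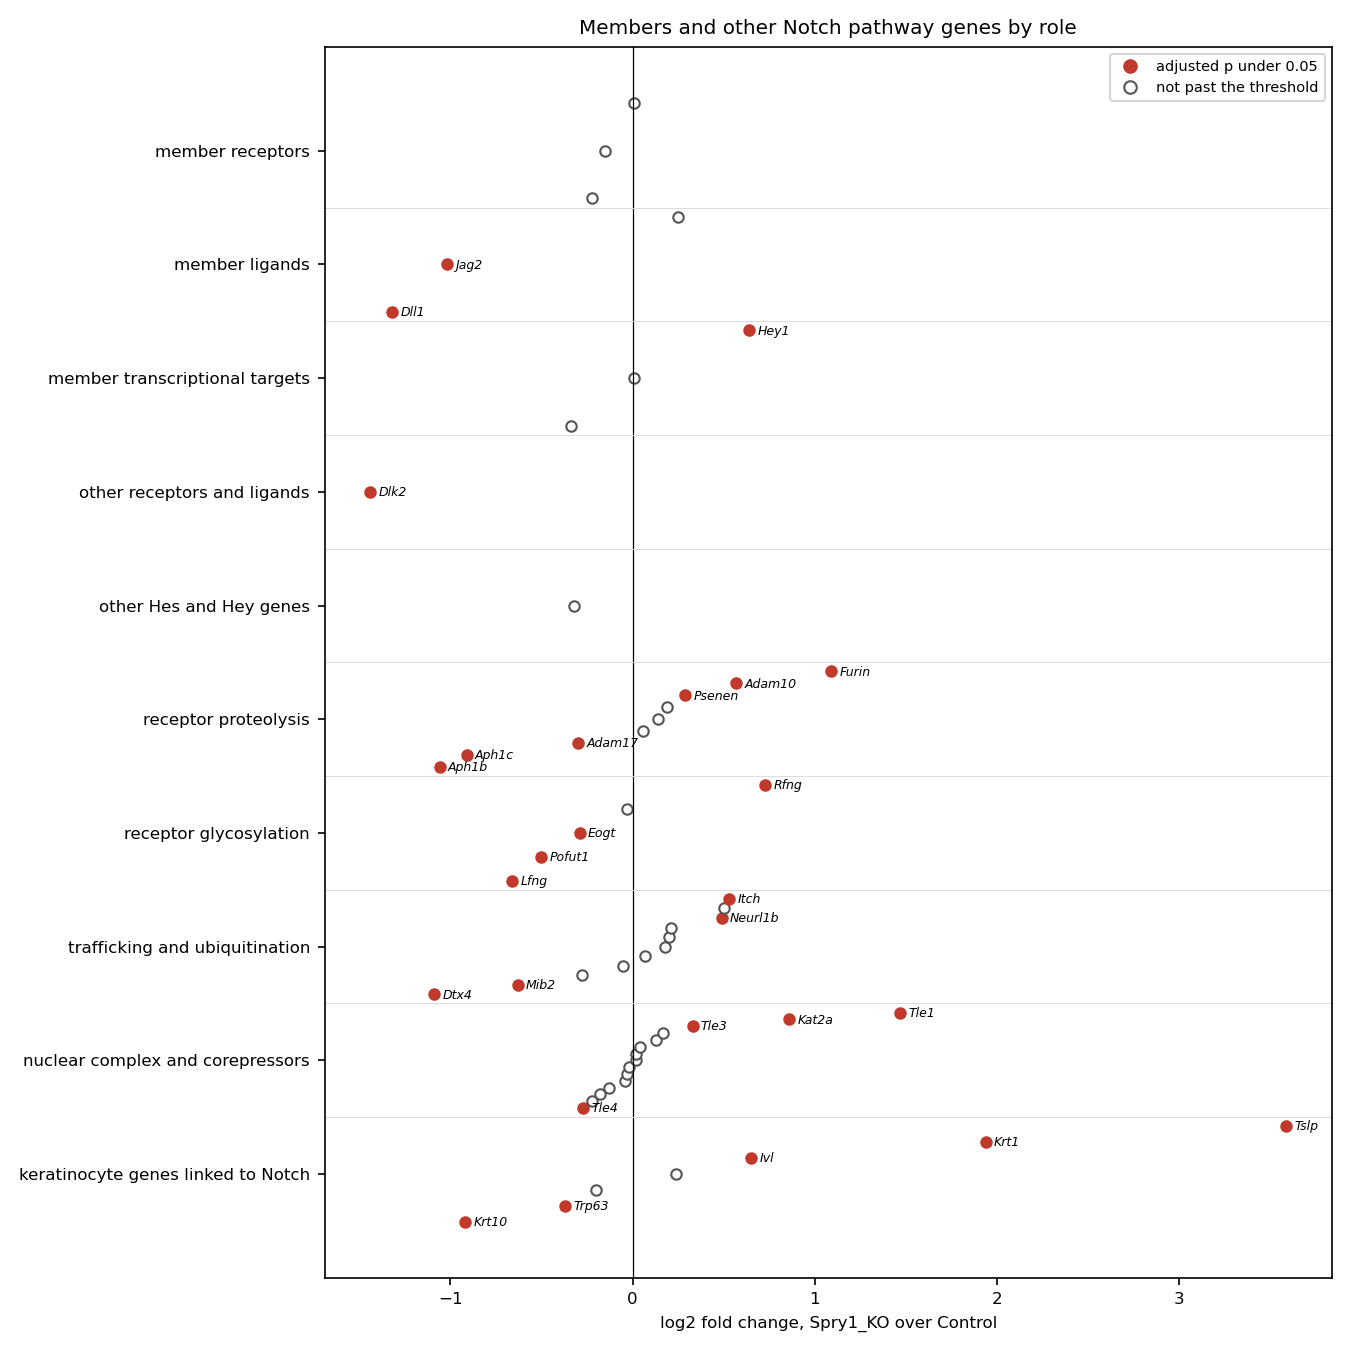
Log2 fold change of Spry1_KO over Control (x axis) for the 9 tested members and other tested genes, in rows by role, with filled red points for genes past an adjusted p of 0.05 (named) and open points for the others. The fallen ligands Dll1, Jag2 and Dlk2 stand left, the nuclear genes cluster near 0 apart from Tle1 and Kat2a, and Krt1 and Krt10 stand on opposite sides.

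Genes that Notch is known to act on in keratinocytes split. Of 8, 3 were higher, 3 lower and 2 did not pass, or 75.0% called against 54% of all genes. The early differentiation keratins, which usually go together, parted. Krt1 rose to 3009 ± 538 FPKM in knockouts, against 782 ± 121 FPKM in controls, while Krt10 fell to 2751 ± 732 FPKM in knockouts, against 5101 ± 593 FPKM in controls (SD, n = 3 each; limma adjusted p of 0.000297 and 0.0173). The call of Krt10 was lost with no filter (0.201) and with the replicate block (0.0503). Ivl, which encodes involucrin of the cornified envelope, rose by 0.65 on the log2 scale. Tslp, a cytokine known to rise in mouse skin that lacks Notch signalling, read 30.2, 55.1 and 12.9 FPKM in the knockouts, against 1.6, 1.3 and 1.31 FPKM in the controls (limma adjusted p of 0.000778). Trp63, a keratinocyte transcription factor, fell by 0.37 on the log2 scale (limma adjusted p of 0.0491). The call of Trp63 was lost without any 1 sample other than Control replicate 3 (0.0541 to 0.144). Cdkn1a and Wnt4 did not pass (limma adjusted p of 0.255 and 0.21), although Wnt4 passed as higher without Control replicate 3 (0.0276).

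Markers of other cells moved with the genotype, and their part in these differences was not tested. Their counts stand beside 54% of all tested genes called and 64.2% without overlap between the groups. All 5 melanocyte markers were higher, summing to 207 to 211 FPKM in the knockouts and 7.93 to 11 FPKM in the controls. All 5 Langerhans cell markers were lower, at 418 to 655 FPKM in the knockouts and 1303 to 2152 FPKM in the controls. Of 5 T cell markers 1 was higher and 4 lower (sums of 11.6 to 22.6 FPKM in knockouts and 41.9 to 58.0 FPKM in controls), and of 5 macrophage markers 3 were higher and 2 lower (54.0 to 104 FPKM and 27.7 to 41.4 FPKM). Of 6 tested hair follicle markers Krt15 was lower and the other 5 did not pass, with Lgr5 and Shh under 1 FPKM throughout. The list summed to 1169 to 1405 FPKM in knockouts and 3330 to 4081 FPKM in controls. Krt15 made up most of these sums, averaging 779 FPKM in knockouts and 3323 FPKM in controls. Among the 5 that did not pass, Sox9 averaged 19.1 FPKM in knockouts and 10.5 FPKM in controls (limma adjusted p of 0.0597). Krt79 averaged 429 and 266 FPKM (limma adjusted p of 0.0669), and neither gene overlapped between the groups. All 5 skeletal muscle markers were lower (3.52 to 5.32 FPKM in knockouts and 16.1 to 58.0 FPKM in controls), as were 3 of 5 tested fibroblast markers (2.0 to 6.81 FPKM and 7.59 to 16.4 FPKM). Of 2 tested pericyte and smooth muscle markers 1, Acta2, was higher, and Cspg4 did not pass (log2 fold change 0.14, limma adjusted p of 0.293). Rgs5, Pdgfrb, Myh11, Tagln and Kcnj8 stayed under 1 FPKM. Des, below the filter, averaged 0.0839 FPKM in knockouts and 1.06 FPKM in controls. Rgs5 averaged 0.0454 and 0.0906 FPKM, and neither gene overlapped between the groups. Pdgfrb and Tagln had a lower mean in the knockouts and Myh11 and Kcnj8 a higher one, all with overlap.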

How the data were processed

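RNA-seq of back epidermis was deposited as 1 table of FPKM values for 54532 genes, 1 column per sample, made by the authors. Per the submitters' processing notes, HISAT2 2.0.5, featureCounts 1.5.0-p3 and the build GRCm38 belong to the pipeline. Which annotation release, strand setting and formula lay behind the FPKM is not stated in the labels, so antisense reads cannot be told apart. Groups and replicate numbers came from the sample titles. GENCODE M21 supplied positions and exon lengths (54495 IDs matched). FPKM times length gave whole reads for 97.0% to 97.3% of values above 0 (tolerance 0.1 reads, where chance gives 20%).

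Tests were two-sided in limma 3.58.1, run in R 4.3.3 on log2(FPKM + 1) with a mean-variance trend and genotype as the only term, over genes averaging 1 FPKM or more, and Benjamini-Hochberg adjustment over all of them at 0.05. The fit was also run on simulated data with 200 changed genes, whereas 54% of all tested genes were called here. Its outcome is not reported here, and no call rests on it. Alternatives were a pseudocount of 0.1, no filter, TPM and median-ratio scaling, limma-voom on recovered reads with trimmed-mean scaling, a replicate block, and leaving out samples. Scaling to recovered reads was added after seeing the data. The members and lists were chosen with earlier results of these data known. Named were the 10 members, pathway genes past the threshold, and of each list the genes with the lowest p. The other unchanged genes, the promoter motifs CACGCG and CACGTG and the sex-linked genes were chosen after values were seen. Some genes that the rule names are not reported here. Figures were drawn with matplotlib 3.10.9 (Python 3.11.15).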

Additional observations from a re-analysis of the deposited data

How the results depend on the processing

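Dll1 and Jag2 stayed lower in all 14 alternatives. Hey1 could be tested in 10, which apart from that with no filter keep it only through its knockout level, so its calls there are no sign of stability. The count of higher members was 0 to 1 without 1 sample and 0 with both Control replicate 3 and Spry1_KO replicate 2 left out, because Hey1 then lay below the filter. TPM scaling gave 2055 higher genes in all. Of the other Hes and Hey genes 1 was called (Hes6) in 3 settings, namely TPM scaling, recovered-read scaling and both samples left out, and 0 to 1 without 1 sample. The replicate numbers pair nothing that the labels name, and deviations of same-numbered samples correlated at -0.098, -0.111 and -0.125. With the replicate block 3216 genes were higher and 2618 lower, and 3 keratinocyte genes were called instead of 6.

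Values near 0 changed sign. Notch1 was -0.26 under TPM scaling, -0.12 scaled to recovered reads, -0.04 in limma-voom, -0.01 without both samples and -0.14 to 0.26 without 1. Nrarp was -0.26, -0.12, -0.04 and -0.24 in the same order, and -0.15 to 0.23 without 1. Under TPM scaling Jag1 was -0.01, Maml1 -0.25, Maml2 -0.05, Aph1a -0.09 and Wnt4 -0.03. Maml1 was -0.10 scaled to recovered reads, -0.03 in limma-voom and -0.01 to 0.03 without 1 sample. Without 1 sample Rbpj ran from -0.08 to 0.06 and Maml3 from -0.06 to 0.00, and Maml3 was 0.01 without both. TPM shares rest on the abundant genes, of which the top 10 held 18.6% to 22.2% of FPKM in knockouts and 12.6% to 16.0% in controls. Low counts limit Hey1 and Heyl. The cause of the other changes was not tested.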
